A study of Mus musculus with 5 samples.

Results

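The metallothionein genes Mt1 and Mt2 and the antiproliferative gene Btg2 lie at places of the mouse genome where Gata6 binding sites, as called by chromatin immunoprecipitation followed by sequencing (ChIP-seq) of whole pancreas, stand close together. The sites, called peaks, were chosen by position. All peaks with their midpoint at 96660001 to 96750000 of chromosome 8 (Mt1 and Mt2) or at 135940001 to 136010000 of chromosome 1 (Btg2) of the genome build mm9 were taken, which gave 6 peaks in each window and 12 of the 7737 peaks of the deposited list. The windows were themselves chosen from the list for their density, so their peak numbers are a description and no test was made of them.

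The peaks came from wild-type C57BL/6 mice. Gata6 was immunoprecipitated from pancreas in 4 libraries. Mice were 5 weeks old for 2 of them and 14 weeks old for the other 2. The background sample was 1 library of input DNA, pooled over the inputs of all replicates. The labels name no engineered allele and no treatment in any group, and they do not say how many animals stand behind a library. The authors deposited a single list for the series with the start and end of each peak, without heights, p-values or values per library. There was therefore no spread between replicates, the depth behind a peak is unknown, and no comparison of ages could be made. Whole pancreas holds acinar, duct, islet and stromal cells, and a peak list alone does not tell in which of them a site was bound.

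Gata6, a transcription factor of the GATA family, recognises DNA through its zinc fingers and is known to maintain the acinar cells of the pancreas, which make digestive enzymes. Mt1 and Mt2 encode small proteins rich in cysteine that bind zinc and copper. They are induced by metals through the factor Mtf1, which binds short metal response elements (MREs) in their promoters, and acinar cells, which move much zinc, produce them. Btg2 belongs to the Btg and Tob family of proteins that slow cell division and bind the complex that shortens the poly(A) tails of messenger RNAs. It is an early-response gene and a known target of p53.

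In the RefSeq gene order of the later build GRCm38.p6, Mt4, Mt3, Mt2 and Mt1 follow each other on chromosome 8. Nup93, which encodes a protein of the nuclear pore, comes next after Mt1 among protein-coding genes. Mt3 and Mt4 encode metallothioneins known from brain and from stratified epithelia. On chromosome 1, Btg2 lies between Fmod, which encodes the collagen-binding proteoglycan fibromodulin, and Chit1, which encodes a chitinase. No mm9 gene annotation was used here, so the names of the 2 windows come from the rule that set them, and a peak is given by its position and was not assigned to an exon, an intron, a UTR or a start site.

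Promoter sequences of the 3 genes are shown because GATA motifs and MREs are the elements by which Gata6 and Mtf1 are known to recognise DNA. Each is the 250 bases before the RefSeq start in GRCm38.p6, 5′ to 3′ in the direction of the gene. The mm9 sequence under the peaks was not used here, and positions of these builds cannot be set beside each other. Capitals mark matches to GATA hexamers (the letters GATA preceded by A or T and followed by A or G) and to the MRE core (TGCACNC or TGCGCNC), on either strand. Mt1 covers chr8:94178839-94179088 (+ strand), Mt2 chr8:94172368-94172617 (+ strand) and Btg2 chr1:134079156-134079405 (- strand).
Mt1: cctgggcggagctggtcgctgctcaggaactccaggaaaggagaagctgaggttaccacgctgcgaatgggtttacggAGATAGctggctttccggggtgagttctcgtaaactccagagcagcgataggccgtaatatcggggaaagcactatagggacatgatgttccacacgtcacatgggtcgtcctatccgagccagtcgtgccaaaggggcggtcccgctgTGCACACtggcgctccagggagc
Mt2: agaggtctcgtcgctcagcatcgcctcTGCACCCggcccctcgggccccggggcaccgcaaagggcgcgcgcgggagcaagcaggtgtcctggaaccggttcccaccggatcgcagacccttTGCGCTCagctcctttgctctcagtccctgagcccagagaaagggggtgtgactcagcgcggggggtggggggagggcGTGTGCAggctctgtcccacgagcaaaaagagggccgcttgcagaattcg
Btg2: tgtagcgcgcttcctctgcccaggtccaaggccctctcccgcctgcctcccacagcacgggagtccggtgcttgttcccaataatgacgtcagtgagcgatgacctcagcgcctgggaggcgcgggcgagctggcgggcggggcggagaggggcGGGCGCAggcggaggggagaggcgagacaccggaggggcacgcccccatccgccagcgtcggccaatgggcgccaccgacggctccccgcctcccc

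The Mt1 promoter held 1 GATA hexamer, AGATAG at 172 to 167 bases before the start, while the windows of Mt2 and Btg2 held none. Of all 32851 promoter windows in the table, 26.5% held at least 1 such hexamer. The MRE core was found once in Mt1, at 23 to 17 bases before the start, 3 times in Mt2 and once in Btg2, against 21.4% of all windows with at least 1. In Btg2 the core match shared bases with a GC box (GGGCGG). Including the 50 bases after the start, which are not printed, raised the MRE matches to 3 in Mt1 and 4 in Mt2 and left 1 in Btg2, where 25.7% of all windows of 300 bases had a match. GC boxes numbered 2 in Mt1, 0 in Mt2 and 3 in Btg2 (32.7% of all windows held one). Mt1 and Mt2 held 1 E box (CANNTG) each and Btg2 held 0 (66.2% of all windows held one). None of the 3 windows held the TATA box letters TATAAA, which 12.4% of all windows did. All these counts depend on the RefSeq start that sets the window. Sequence more than 50 bases after that start was not searched, so a motif absent here may lie there.

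Related genes were searched in the same way. Of 15 genes of the metallothionein and Btg/Tob families and of zinc handling, 13 had entries, with 14 promoter windows. A GATA hexamer was present in 2 of these 14 windows (26.5% of all promoter windows), those of Mt1 and of Tob1, which encodes an antiproliferative protein of the Btg and Tob family. The MRE core was present in 8 of the 14 (21.4% of all promoter windows). They were 3 of 4 metallothionein, 3 of 7 Btg and Tob and 2 of 3 metal-handling windows. The last 2 were Slc30a1, which encodes a zinc exporter, with 1 match and Slc30a2, another zinc transporter, with 2. GC content ran from 58.8 to 75.2% in the 8 and from 38.0 to 67.2% in the windows without the core. The median over all promoter windows was 52.4%, and the share of 21.4% was not matched for GC content. The motif matches describe letters in the reference, not binding. The promoters of Mt2 and Btg2 show only that the hexamer is not in these windows.

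The metallothionein peaks lay within a short stretch of chromosome 8 band qC5. From the start of the first to the end of the last, at 96696484 to 96711128, they spanned 14.6 kb, or 16.3% of the 90 kb window, and nothing was called in the remaining 36.5 kb before and 38.9 kb after them. Peak 1, at 96696484 to 96697644, was 1161 bp wide. Peak 2, at 96698535 to 96698959, was the narrowest with 425 bp. Peak 3, at 96702495 to 96703971, was the widest of the group with 1477 bp. Peak 4, at 96704595 to 96705756, measured 1162 bp, a width almost the same as that of peak 1. Peaks 5 and 6 closed the group with 935 bp at 96707985 to 96708919 and 958 bp at 96710171 to 96711128.

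Gaps between facing edges in the metallothionein group were 890, 3535, 623, 2228 and 1251 bp in order along the chromosome. Peaks 1 and 2, 3 and 4, and 5 and 6 thus stood as 3 close pairs, each with less than 2 kb between its members and with wider gaps between the pairs. Midpoints of neighbours were 1683 to 4486 bp apart, with a median of 2197.5 bp. Together the 6 peaks covered 6118 bp, which was 41.8% of the span.

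The Btg2 peaks were spread more widely, over chromosome 1 at 135967775 to 135996750 in band qE4. Their span of 29.0 kb took 41.4% of the 70 kb window. Peak 1 lay at 135967775 to 135968648 and measured 874 bp. Peak 2, at 135974451 to 135976242, measured 1792 bp. Peak 3, at 135983161 to 135983943, was the narrowest with 783 bp, and peak 4, at 135988846 to 135989804, had 959 bp. Peak 5, at 135992725 to 135993837, spanned 1113 bp. Peak 6, at 135994147 to 135996750, spanned 2604 bp and was the widest of all 12.

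Spacing in the Btg2 group narrowed along the chromosome after the second gap. Its edge gaps were 5802, 6918, 4902, 2920 and 309 bp, so that peaks 5 and 6 almost touched and the others stood apart by several kb. The median gap was 4902 bp, against 1251 bp in the metallothionein group. Midpoint distances ran from 2167.5 to 8205.5 bp with a median of 5773 bp. The peaks covered 8125 bp in all, more than the metallothionein peaks, but a smaller part of their span, 28.0%. The map of both groups shows the 3 pairs at the metallothionein genes and the long, narrowing series at Btg2.

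**Figure D1:**
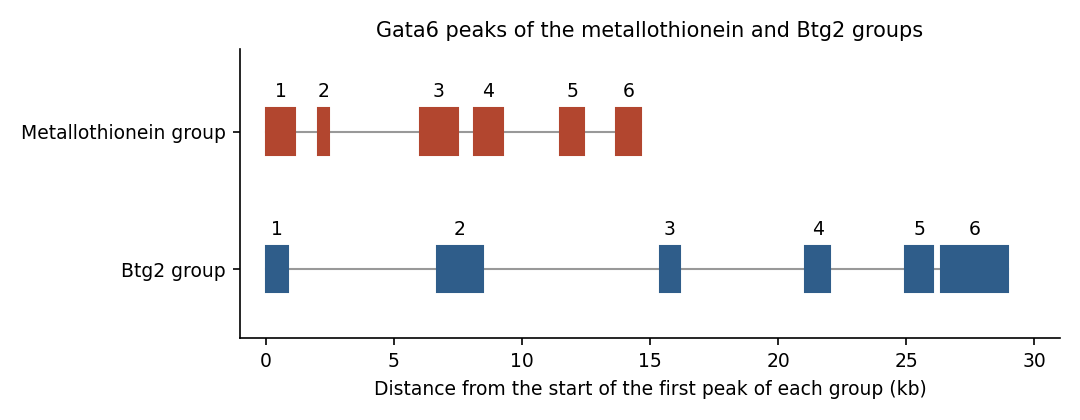
Gata6 peaks of the metallothionein group (chromosome 8) and the Btg2 group (chromosome 1), drawn to scale as boxes against the distance in kb from the start of each group's first peak, and numbered in chromosome order. The metallothionein group ends at 14.6 kb and the Btg2 group at 29.0 kb, and both hold 6 peaks.

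Gaps as short as these were uncommon in the list as a whole. Over the 7713 gaps between neighbouring peaks of the 19 autosomes and X, the median was 78226 bp. The widest gap inside the metallothionein group, 3535 bp, was matched or undercut by 9.54% of all gaps, and the widest inside the Btg2 group, 6918 bp, by 14.1%. On their outer sides both groups were bordered by long stretches with no peak. The metallothionein group had its nearest neighbours 544 kb before and 167 kb after it. The Btg2 group had its nearest neighbours 622 kb before and 132 kb after it.

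Windows with 6 peaks were rare. The windows that the rule sets coincide with windows of a grid that starts at the first base of each chromosome, so each was counted among all windows of its grid. Of 29332 windows of 90 kb on the 19 autosomes and X, 24315 (82.9%) held no peak, 3378 held 1 and 1005 held 2. At least 6 were held by 49 windows (0.167%), namely 29 with 6, the class of the metallothionein window, and 20 with more. The mean was 0.264 peaks per window, so the metallothionein window held 22.8 times the mean. On chromosome 8 itself, 5 of 1464 windows held at least 6, and the fullest held 7. The count depends on how close peaks were kept apart. With peaks merged whose edges lay within 2 kb, the 3 pairs became 3 regions, and 1.59% of 90 kb windows held at least as many. Merging within 500 bp left all 6 metallothionein peaks separate and lowered the share to 0.0989%.

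Of 37710 windows of 70 kb, 35 (0.0928%) held 6 or more peaks. The class of 6, to which the Btg2 window belongs, had 23 windows, and 12 windows held more. With a mean of 0.205 peaks per window, the Btg2 window lay at 29.3 times the mean. It was the only one of the 2818 windows of chromosome 1 on this grid with 6 peaks, and none on that chromosome held more. Merging peaks whose edges lay within 500 bp joined Btg2 peaks 5 and 6 and left 5 regions, and 0.156% of windows then held at least as many. With only peaks at least as wide as the list median, all 6 Btg2 peaks stayed and 0.0318% of windows held at least as many. Its rank was higher by sequence covered than by number, since only 8 of the 37710 windows (0.0212%), itself included, had as many bases under peaks. The metallothionein window was matched in covered bases by 40 of 29332 windows (0.136%), itself included.

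**Figure D2:**
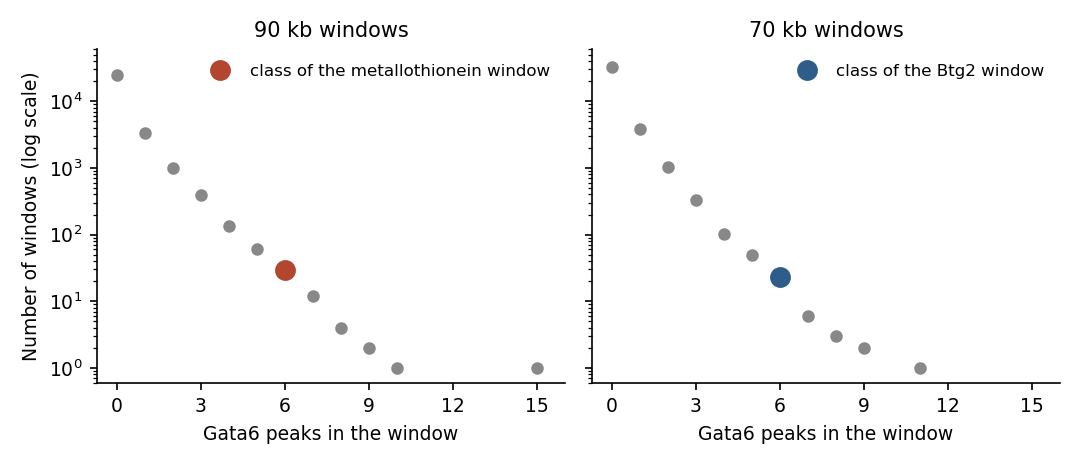
Number of genome windows (log scale) by the number of Gata6 peaks they hold, for 90 kb windows on the left and 70 kb windows on the right, with the class of 6 peaks coloured. The class of 6 has 29 windows on the left and 23 on the right, and the fullest windows hold 15 and 11 peaks.

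A fixed grid cuts some groups, while the 2 windows were set so as to hold theirs whole. With windows free to start anywhere, 6 midpoints fitted within 90 kb in 99 separate regions and within 70 kb in 77, more than the 49 and 35 windows of the grids. The places that outranked the 2 loci on the grids were scattered over the genome. The fullest 90 kb window, with 15 peaks, lay on chromosome 15 at 100440001 to 100530000, followed by one of 10 peaks on chromosome 6 at 51210001 to 51300000 and windows of 9 on chromosome 4 at 141390001 to 141480000 and on chromosome 19 at 58770001 to 58860000. The fullest 70 kb window held 11 peaks, at 100450001 to 100520000 in the same region of chromosome 15. Windows of 9 on chromosome 4 at 141330001 to 141400000 and on chromosome 11 at 94010001 to 94080000 came next.

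Measured by span instead of by window, the metallothionein group ranked much nearer the top than the Btg2 group. The list holds 7633 runs of 6 neighbouring peaks on the same chromosome, many of which share peaks, with a median span of 834 kb. A span of at most 14.6 kb occurred in 6 of them (0.0786%), the metallothionein group included. Taken without shared peaks, starting from the shortest, this left 3 separate places. A span of at most 29.0 kb, that of the Btg2 group, occurred in 31 runs (0.406%), or 14 separate places. The median span was 57.0 times that of the metallothionein group and 28.8 times that of the Btg2 group. No run on chromosome 8 was shorter than the metallothionein group, and no run on chromosome 1 was shorter than the Btg2 group.

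**Figure D3:**
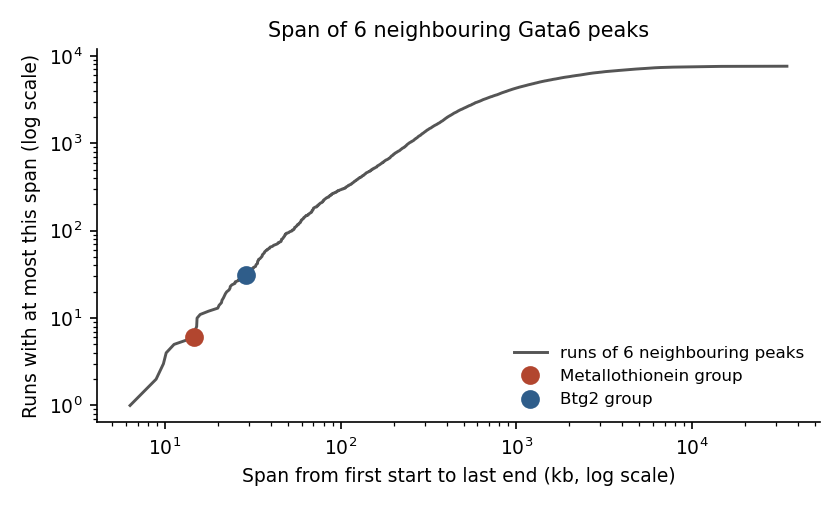
Number of runs of 6 neighbouring Gata6 peaks with at most a given span from first start to last end, both axes logarithmic, over 7633 runs. The metallothionein group sits at 14.6 kb as the sixth shortest and the Btg2 group at 29.0 kb with 31 runs at or below it.

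When peaks were joined wherever neighbouring midpoints lay within 10 kb, each locus formed a single group of exactly 6. Of 941 groups of 2 or more peaks, 11 (1.17%) held 6 or more, with 78 peaks in all, and 7 of these held 6. Among the 7, spans ran from 9.81 to 29.8 kb with a median of 17.7 kb. The metallothionein group was the second shortest and the Btg2 group the sixth. Peaks covered 13.1 to 72.7% of the span in these 7 groups, so that the 41.8% at the metallothionein genes and the 28.0% at Btg2 lay inside the range of like-sized groups.

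Both groups stood farther from other peaks than most of the dense groups. The nearest outside peak lay 167 kb from the metallothionein group, a distance reached by 3 of the 11 groups (27.3%), itself included, and 1 of the other 2 was the group on the far side of that same gap. For the Btg2 group it lay 132 kb away, a distance reached by 4 of the 11 (36.4%). The median over the 11 groups was 39.8 kb. With so few groups these shares describe an order only.

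The scale at which each locus was dense differed. In a 10 kb window centred on the group, the metallothionein locus held 3 peaks, matched by 0.0273% of grid windows of that width, and the Btg2 locus held 1, matched by 2.66%. In 20 kb the metallothionein locus held 6, matched by 2 of 131957 grid windows (0.00152%), and the Btg2 locus held 3, matched by 184 (0.139%). In 30 kb both held 6, matched by 7 of 87976 (0.00796%). Since the windows on the loci were centred on them, these shares favour the loci. From 30 to 200 kb neither locus gained a peak, so that at 200 kb both held 10.2 times the mean of all windows.

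Beyond 200 kb the surroundings came in. At 500 kb the metallothionein locus held 13 peaks, 8.89 times the mean, and the Btg2 locus 9, 6.16 times the mean. At 2000 kb they held 22 and 17 peaks, 3.78 and 2.92 times the mean. Band qC5 of chromosome 8 had 27 peaks, or 6.29 per Mb, and band qE4 of chromosome 1 had 69, or 6.33 per Mb, which includes the 6 peaks chosen in each. Without them, band qC5 had 21 peaks, or 4.89 per Mb, where the chromosome without them had 3.07. Band qE4 then had 63 peaks, or 5.78 per Mb, against 2.46 on chromosome 1 without them. Of the 21 peaks left in band qC5, 7 belonged to a single other dense group that begins 167 kb after the metallothionein group. The same 7 were among the 13 peaks at 500 kb, so both values rest in part on that group.

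**Figure D4:**
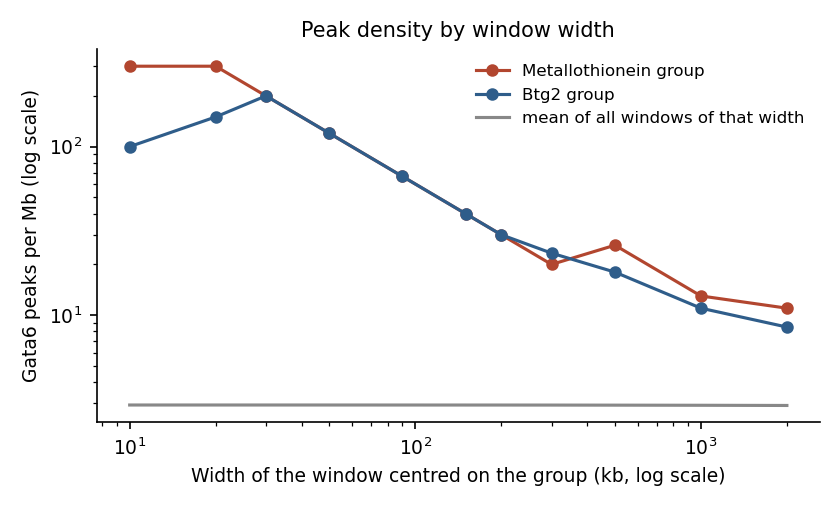
Gata6 peaks per Mb (log scale) in windows of 10 to 2000 kb (log scale) centred on each group, with the mean of all grid windows as a grey line. The metallothionein locus is densest at 10 and 20 kb and the Btg2 locus at 30 kb, and the curves coincide from 30 to 200 kb, where each window holds 6 peaks.

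The peaks of both loci were mostly wide. The list had a median width of 728 bp with quartiles of 533 and 996 bp, and 11 of the 12 peaks were wider than the median, as were 49.9% of all peaks. Above the upper quartile lay 6 of the 12 (25.0% of all peaks) and below the lower quartile only metallothionein peak 2. Medians were 1059.5 bp at the metallothionein genes and 1036 bp at Btg2, while the range was 425 to 1477 bp in the former and 783 to 2604 bp in the latter. Wide peaks were also common in the other dense groups, where 45 of 66 peaks (68.2%) exceeded the list median and the median width was 977 bp. Peaks are not replicates of each other, and no test was made of these widths.

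Single peaks stood out by width more at Btg2. Btg2 peak 6 was wider than 99.5% of the 7733 placed peaks and ranked as the 40th widest. Btg2 peak 2 was wider than 97.1% of them. At the metallothionein genes, peak 3 was wider than 93.6% and peaks 1 and 4 wider than 84.3 and 84.4%. Metallothionein peak 2, in contrast, was wider than only 11.9%.

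The place of a peak in the list, which carries no explanation, was spread in both groups. The lines form 94 runs, each sorted by chromosome name and position, and the 12 peaks fell into 10 of them. Btg2 peak 5 came earliest, at line 207, and was the only one of the 12 among the first 300 lines. Btg2 peak 6 followed at line 1497, and the remaining Btg2 peaks stood at lines 4832 (peak 1), 4092 (peak 2), 4905 (peak 3) and 5701 (peak 4). Thus the closely spaced peaks 5 and 6 preceded the more distant ones of the same group.

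The metallothionein peaks stood at lines 2875, 6995, 2329, 4531, 2330 and 6117 in chromosome order. In each of the 3 close pairs, 1 peak came no later than line 2875 and its partner no earlier than line 4531. The narrowest, peak 2, was the last of the 12. With the list divided by line number into 3 parts of 2579 lines, median widths were 785, 772 and 635 bp in order, and the median of either group lay above all of these.

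**Figure D5:**
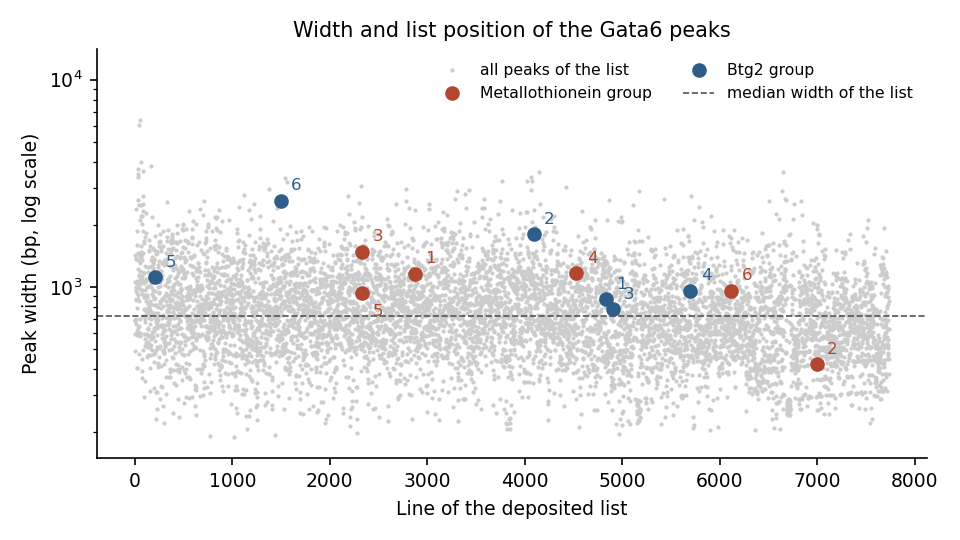
Width of every Gata6 peak (bp, log scale) against its line in the deposited list, with the 6 metallothionein and the 6 Btg2 peaks coloured and numbered in chromosome order and the list median of 728 bp as a dashed line. All but metallothionein peak 2 lie above the median, and the peaks are scattered from line 207 to line 6995.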

How the data were processed

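The list of Gata6 peaks was used as the authors deposited it, with nothing but the position of each peak in base pairs of mm9. The submitters' processing notes name the build, CASAVA 1.8 and BWA 0.5.9-r16. The peak caller and the pooling of libraries are not stated in the sources used here. For the threshold, only the list's name gives a hint, "FDR1", which may mean a false discovery rate and is not explained. The list was treated as 1 pooled result of 4 libraries. Printed starts are 1-based, the file's being taken as 0-based. Peaks were counted by midpoint on the 19 autosomes and X (7733 of 7737 peaks), with chromosome ends and bands from circlize 0.4.16 in R 4.3.3 and all counting in Python 3.11.15 with numpy 2.4.6 and pandas 2.3.3. Counting was checked on simulated positions with known answers. Shares of 90 kb and 70 kb windows include the locus itself, except on moved grids, whose boundaries cut both groups. Promoter windows and gene order came from RefSeq tables of GRCm38.p6, and of 15 genes listed for sequence content 13 matched. Members, windows and gene lists were chosen with earlier results of these data known, and no value here has a test. The rule for named items took the 3 genes, all 12 peaks, their nearest neighbours, flanking genes, listed family genes and the fullest windows. Alternatives changed the grid, the peaks kept, the merging of peaks and the window size.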

Additional observations from a re-analysis of the deposited data

How the results depend on the processing

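Among 44 alternative values, 28 stayed within a set tolerance and 16 moved. The tolerance was 1.5 times for counts, the exact 95% binomial interval for shares and 1 SD over the peaks for widths and gaps. Peaks are not replicates, so this SD served only as a yardstick. Some of the 28 could not move. The shortest metallothionein gap was 623 bp, so merging within 500 bp left that group's count, widths and gaps unchanged. All 6 Btg2 peaks exceeded the list median, so keeping only wide peaks left theirs unchanged. The values have no direction, so a reversal was not defined. The metallothionein count rests on short gaps. With peaks merged whose edges lay within 2 kb, its 6 peaks became 3 regions with a median width of 3144 bp and a median gap of 2881.5 bp, and 1.59% of 90 kb windows held as many. At Btg2, merging left 5 regions. With 500 bp merged, the shares were 0.0989% for the metallothionein window and 0.156% for the Btg2 window. Keeping only peaks at least as wide as the median gave 0.116% and 0.0318%, the home chromosome alone 0.342% and 0.0355%, windows with at least 1 peak 0.977% and 0.657%, 50 kb windows 0.0341% at both loci, and ranking by span 0.0786% and 0.406%. Each of these changes the windows or peaks counted by its construction. Shares stayed within the interval on grids moved by 45 and 35 kb, with steps of 10 kb, on autosomes alone and without the first 3 Mb. They also did so for windows in bands of the same stain, a choice made after seeing the data. The boundaries of the moved grids cut both groups. Their shares still count windows with at least 6 peaks, the number in the loci's own unmoved windows. Leaving out a library could not be done with a pooled list. Unknown depth limits which weaker sites near these genes were called. No paired analysis was possible because replicates have no values of their own.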

Other observations

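The metallothionein group had a dense neighbour. Beginning 167 kb after it on chromosome 8, another 7 Gata6 peaks lay at 96878165 to 96916414, over 38.3 kb, with widths from 359 to 1945 bp. This neighbour was itself among the 11 groups of 6 or more peaks of the genome. Its place against genes was not analysed here. No peak was called within 250 kb before the metallothionein window. After the Btg2 window, 3 peaks at 136128836 to 136163175 were called within 250 kb, with widths from 358 to 2461 bp, and before it none.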
